A study of Mus musculus with 6 samples.

Results

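Naive pluripotency transcription factors were examined in mouse embryonic stem (ES) cells with and without Dppa4. The 10 genes were Nanog, Prdm14, Klf2, Klf4, Klf5, Esrrb, Tfcp2l1, Tbx3, Zfp42 and Nr0b1, chosen by name, and all probe sets that the platform annotation assigns to exactly 1 of these symbols were taken. This gave 21 of the 45037 probe sets tested, and 10 of the 18193 genes represented. Klf4, Klf5, Esrrb, Tfcp2l1 and Tbx3 had several probe sets each, and for each gene the probe set with the highest mean over the arrays is given first and called its lead probe set. RNA came from the Dppa4 knockout line CI#243.12 and from CI#84.2, the hemizygous parental line, which carries a single intact copy of Dppa4. Both lines were cultured on mouse embryonic fibroblast feeders, and each group consisted of 3 arrays of that 1 line. Differences between the groups are therefore differences between these lines, and effects of the deletion and of the line cannot be told apart. The labels number the replicates but do not name their cultures, and the p-values rest on a spread between arrays that may be purely technical.

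Naive pluripotency is the state of the preimplantation epiblast and of mouse ES cells kept with the cytokine LIF. It is held by a network of transcription factors that bind each other's genes together with Oct4 (Pou5f1) and Sox2. LIF acts through Stat3 on Klf4 and Tfcp2l1, inhibition of the kinase GSK3 acts on Esrrb through relief of the repressor Tcf7l1, and FGF and ERK signalling drives cells out of the state. The network is built with redundancy, so that single factors can be lost from mouse ES cells without immediate loss of self-renewal.

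Values are log2 expression values made by the authors with RMA (robust multi-array average), and changes are knockout minus parental on that scale. Values are compared only within a probe set. Olfactory and vomeronasal receptor probe sets set the background level, 3.79. A probe set passed where the moderated test of limma, fitted over the whole table, gave a Benjamini-Hochberg adjusted p under 0.05. The targeted gene Dppa4 (probe set 1429597_at) read 10.30, 10.35 and 10.45 in parental and 8.68, 8.84 and 8.68 in knockout arrays. Whether its probes lie in the deleted part is not given in the sources used here, so this value checks only the direction of the labels. The 6 ES cell markers were Pou5f1, Sox2, Utf1, Lin28a, Dppa5a and Tdgf1. All of them also belong to the general pluripotency list given further below. That list, of 19 measured genes, had array means of 9.82 to 9.84 in parental and 9.65 to 9.75 in knockout samples. The 6 ES cell markers had array means of 11.27 to 11.34 in parental and 11.30 to 11.35 in knockout samples, and 0 of 6 passed the test. The knockout arrays lay below all parental arrays for 2 of them, Pou5f1 and Sox2, and above for 1, Dppa5a. Among genes above background, 18.7% were separated in either direction. All 19 measured feeder fibroblast markers lay above background on these arrays, and their array mean was 10.21 to 10.28 in parental and 10.32 to 10.47 in knockout samples. That difference of 0.12 separated the groups without overlap (exact two-sided permutation p = 0.1, the smallest possible with 3 against 3), while 0 of 19 markers passed limma's test. At an unadjusted p under 0.05, 2 of the 19 feeder markers were higher and 0 lower, where 1938 of all 45037 probe sets were higher. On such mixed RNA, fewer ES cells and less RNA per ES cell cannot be told apart. Markers of primitive endoderm (5.06 to 5.21 in parental, 5.11 to 5.26 in knockout arrays) and trophoblast (4.93 to 5.32 and 5.02 to 5.32) overlapped between the groups.

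The 10 naive factors were measured above background in both lines, and none of them passed the test of limma across the whole table. Of 21 probe sets 0 had an adjusted p under 0.05, against 0.402% of all probe sets. The lowest adjusted p was 0.122, for Nanog. At an unadjusted p under 0.05, 4 of 21 were lower and 0 higher, where 9.49% of all probe sets passed in either direction and 5.19% were lower. The knockout arrays lay below the parental arrays without overlap on 6 probe sets, of Nanog, Prdm14, Klf2, Tfcp2l1 and Esrrb, the latter with 2, and on 0 did they lie above. Over all probe sets, 14.2% did not overlap in either direction and 7.52% did so with lower knockout values. Counted on lead probe sets, 5 of 10 genes were lower without overlap, against 10.2% of the 13347 genes whose lead probe set exceeded background (18.7% in either direction). The median change of the 10 lead probe sets was -0.18, where that of the 13347 genes was 0.01. These shares describe a list named with earlier results in view and carry no test.

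**Figure D1:**
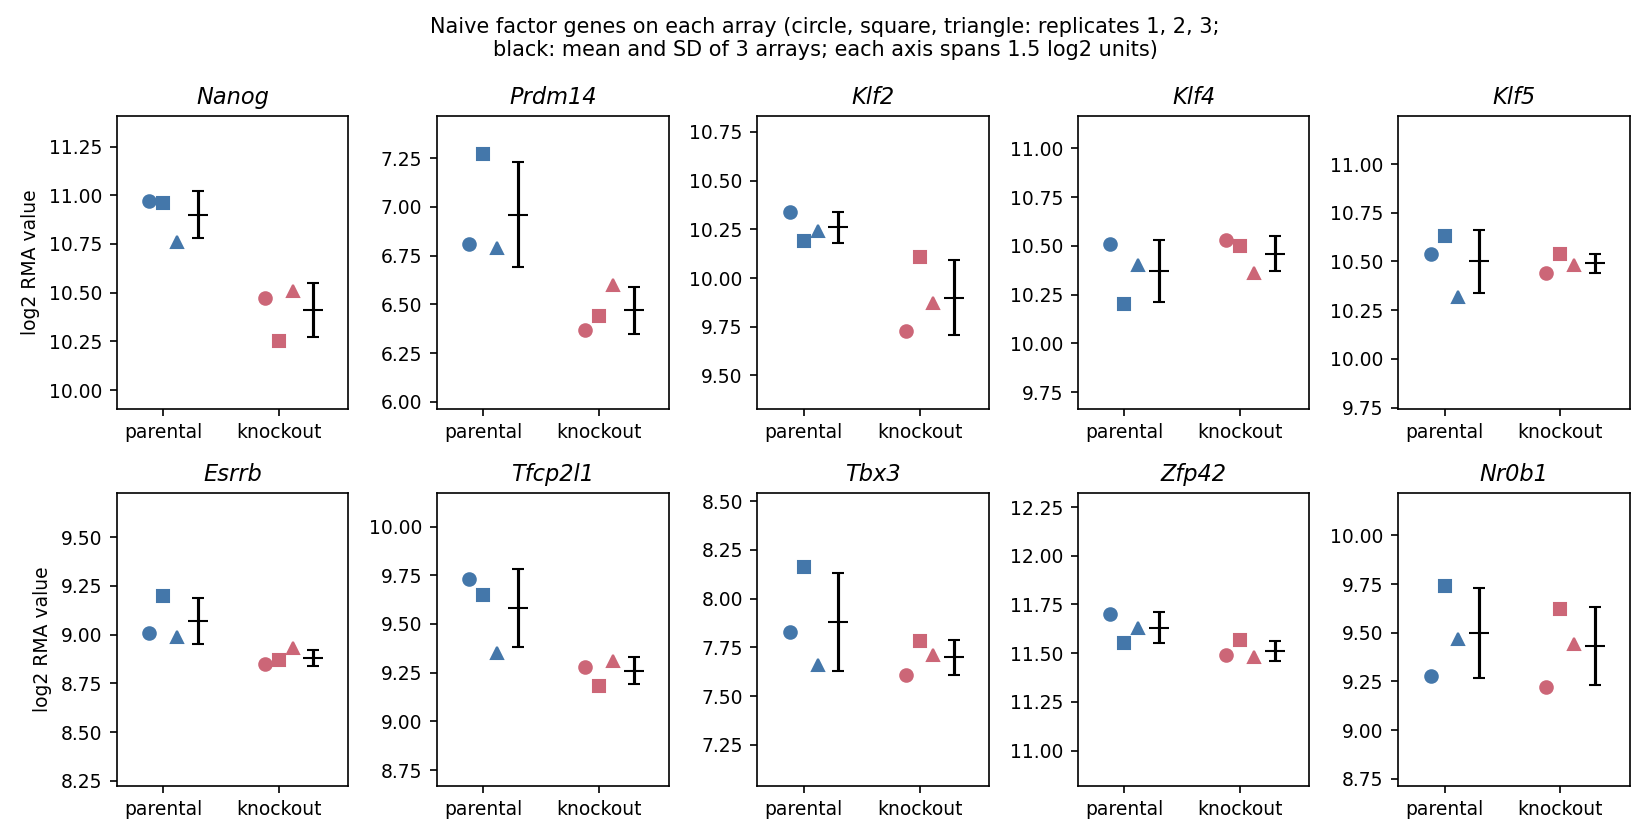
Log2 RMA values of the lead probe set of each naive factor gene on the 3 parental (blue) and 3 knockout (red) arrays, with the mean and SD in black. The knockout points of Nanog, Prdm14, Klf2, Esrrb and Tfcp2l1 lie below all parental points, and those of Klf4, Klf5, Tbx3, Zfp42 and Nr0b1 overlap with them.

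Nanog, a homeodomain protein that stabilises self-renewal and whose level varies between single ES cells, had the smallest p of the group. Its only probe set (1429388_at, a gene of chromosome 6) read 10.97, 10.96 and 10.76 in the parental arrays and 10.47, 10.25 and 10.51 in the knockout arrays. All knockout values were below all parental values. The change was -0.49 (SE 0.10, 95% interval -0.71 to -0.26), which is 71.4% of the parental signal with an interval of 61.0% to 83.6%, and the adjusted p was 0.122 (limma). It passed with an intensity trend and a robust prior (adjusted p = 0.0266), and over all the alternatives run on that probe set the adjusted p ranged from 0.0266 to 0.733. RefSeq lists 2 pseudogenes of Nanog, on chromosomes 12 and X, and whether their transcripts reach this probe set was not tested.

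Prdm14, a zinc finger protein with a PR domain that represses de novo DNA methylation and FGF receptor genes in mouse ES cells, had a change of the same size with a wider spread. On 1444390_at, chromosome 1, the parental arrays read 6.81, 7.27 and 6.79 and the knockout arrays 6.37, 6.44 and 6.60. Parental replicate 2 stood above the other parental arrays, and the groups did not overlap. The change was -0.49 (SE 0.14, interval -0.80 to -0.17, adjusted p = 0.281, limma), and it was -0.33 without parental replicate 2.

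The Krüppel-like factors Klf2, Klf4 and Klf5 share a DNA-binding domain of zinc fingers and are known to substitute for one another in mouse ES cells. Klf2 (1448890_at, chromosome 8) read 10.34, 10.19 and 10.24 in parental and 9.73, 10.11 and 9.87 in knockout arrays. The groups were separate, but knockout replicate 2 came close to the lowest parental array. The change of Klf2 was -0.35 (SE 0.11, interval -0.60 to -0.11, adjusted p = 0.324, limma), and it shrank to -0.11 (adjusted p = 0.953) with the feeder marker mean as a covariate.

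Klf4, which LIF induces through Stat3, read 10.51, 10.20 and 10.40 in parental and 10.53, 10.50 and 10.36 in knockout arrays on 1417394_at. Those groups overlapped, with a change of 0.09 (interval -0.13 to 0.32, adjusted p = 0.834, limma). It was 0.01 without parental replicate 2 and 0.16 without parental replicate 1. The other Klf4 probe set, 1417395_at, gave -0.06 (interval -0.27 to 0.14). Klf5, lead probe set 1451021_a_at, read 10.54, 10.63 and 10.32 in parental and 10.44, 10.54 and 10.48 in knockout arrays. On this probe set the change was -0.01 (interval -0.23 to 0.21, adjusted p = 0.986, limma). The -0.35 of Klf2 lay outside that interval, but the interval of Klf2 (-0.60 to -0.11) overlapped with it. The remaining Klf5 probe sets gave -0.05 (1451739_at, interval -0.41 to 0.31, which holds -0.35) and 0.02 (1430255_at, with a knockout mean of 3.88 near the background level of 3.79).

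The difference between a pair of Klf genes was taken per array, for 3 pairs, a comparison that was not among the planned tests. Klf2 minus Klf4 went from between -0.17 and -0.01 in parental to between -0.80 and -0.39 in knockout arrays, a difference of -0.45 without overlap (exact two-sided permutation p = 0.1, the smallest possible; 0.3 after Benjamini-Hochberg adjustment over the 3 pairs). Klf2 minus Klf5 differed by -0.34 with overlap (exact p = 0.2, adjusted 0.3), and Klf4 minus Klf5 by 0.10 (exact p = 0.8, adjusted 0.8). With 3 arrays a group no such pair can reach 0.05, so this test cannot decide whether the Klf genes changed unequally. Klf4 is also known from fibroblasts, and the share of feeder RNA in the Klf signals was not tested.

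Esrrb, an orphan nuclear receptor and a target of Nanog, had 3 probe sets on which the changes were all below 0. The lead probe set, 1436926_at of chromosome 12, read 9.01, 9.20 and 8.99 in parental and 8.85, 8.87 and 8.93 in knockout arrays. Here the groups did not overlap, although the nearest arrays (8.99 and 8.93) lay close together. Its change was -0.18 (SE 0.08, interval -0.37 to 0.01, adjusted p = 0.543, limma). Probe set 1441921_x_at gave -0.10 without overlap and 1422986_at gave -0.18 with overlap, at adjusted p of 0.751 and 0.687.

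Tfcp2l1, a grainyhead-family factor downstream of LIF and Stat3, read 9.73, 9.65 and 9.35 in parental and 9.28, 9.18 and 9.31 in knockout arrays on 1418091_at. Parental replicate 3 lay just above the knockout arrays and the groups did not overlap. The change was -0.32 (SE 0.11, interval -0.57 to -0.07, adjusted p = 0.391, limma), with -0.43 when parental replicate 3 was left out. Its other probe sets, 1460715_x_at and 1460714_at, were below background in both groups (changes of -0.01 and 0.18).

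Tbx3, a T-box factor that promotes self-renewal and is also used in endoderm, had 5 probe sets, of which 1444594_at lay below background. The lead probe set 1448029_at read 7.83, 8.16 and 7.66 in parental and 7.61, 7.78 and 7.71 in knockout arrays. Parental replicate 2 was the highest and the groups overlapped. The change was -0.18 (interval -0.47 to 0.11, adjusted p = 0.725, limma), with -0.04 without parental replicate 2 and -0.29 without parental replicate 3. On the other 4 probe sets it ranged from -0.24 to -0.03, and none passed.

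Zfp42 (Rex1), a zinc finger protein used as a marker of the naive state, read 11.70, 11.55 and 11.63 in parental and 11.49, 11.57 and 11.48 in knockout arrays on 1418362_at. Knockout replicate 2 fell within the parental range. The change was -0.11 (interval -0.29 to 0.06, adjusted p = 0.715, limma), so that a fall to below 81.9% of the parental signal lay outside the interval. RefSeq lists 1 pseudogene of Zfp42, on chromosome 15.

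Nr0b1 (Dax1), an X-linked nuclear receptor that binds Oct4 and limits its activity, read 9.28, 9.74 and 9.47 in parental and 9.22, 9.62 and 9.44 in knockout arrays on 1417760_at. In both groups replicate 2 was the highest and replicate 1 the lowest, and the groups overlapped over most of their range. The change was -0.07 (interval -0.39 to 0.25, adjusted p = 0.923, limma).

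**Figure D2:**
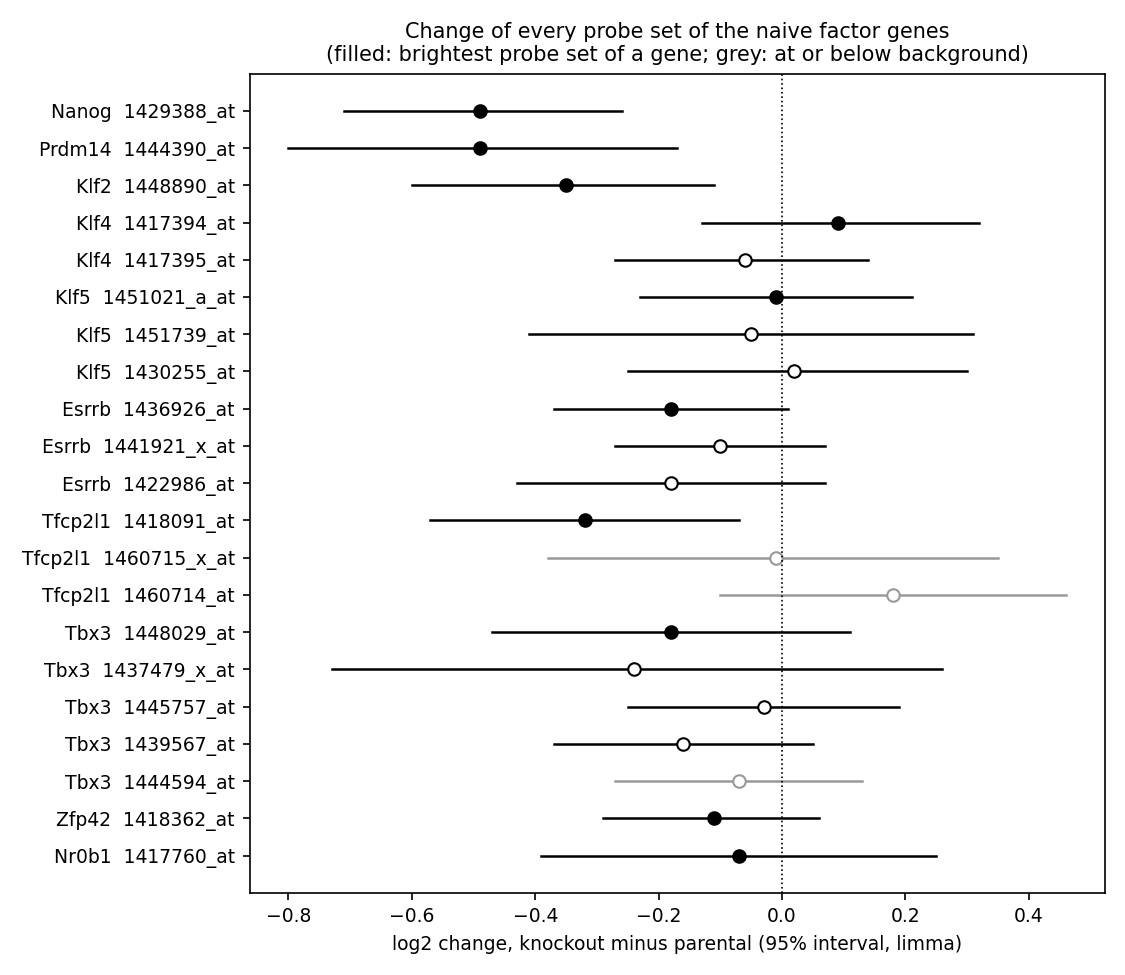
Log2 change (knockout minus parental) of all 21 probe sets of the naive factor genes with the 95% interval of limma. Filled points are lead probe sets and grey ones lie at or below background; the intervals of Nanog, Prdm14, Klf2 and 1418091_at of Tfcp2l1 stay below 0, before adjustment for multiple tests.

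Promoter sequences are shown because Nanog and Zfp42 are textbook targets of Oct4 and Sox2, and because Klf factors bind sites in the genes of this network. RefSeq promoters (GRCm38.p6) were given for 7 of the 10 genes. The 250 bases before the start were searched on both strands for the octamer core ATGCAAA, the Sox core CATTGT, the Klf box CACNCCC and the Esrrb core AAGGTCA. Matches are in capitals, and a match on the opposite strand appears as its reverse complement (TTTGCAT for the octamer core, ACAATG for the Sox core, GGGNGTG for the Klf box). The windows are chr6:122707239-122707488 (plus strand) for the upstream start of Nanog, chr8:43307010-43307259 (minus strand) for Zfp42 and chr1:118627695-118627944 (plus strand) for Tfcp2l1.
Nanog: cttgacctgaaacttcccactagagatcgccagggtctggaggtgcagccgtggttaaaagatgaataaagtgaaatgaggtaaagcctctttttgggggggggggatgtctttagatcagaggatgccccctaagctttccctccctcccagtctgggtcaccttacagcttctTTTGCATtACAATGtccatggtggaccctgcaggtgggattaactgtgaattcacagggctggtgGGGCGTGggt
Zfp42: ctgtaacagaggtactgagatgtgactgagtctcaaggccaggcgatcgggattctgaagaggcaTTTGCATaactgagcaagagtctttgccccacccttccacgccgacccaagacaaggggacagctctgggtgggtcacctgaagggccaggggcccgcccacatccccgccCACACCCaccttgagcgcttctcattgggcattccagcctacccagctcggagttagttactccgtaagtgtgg
Tfcp2l1: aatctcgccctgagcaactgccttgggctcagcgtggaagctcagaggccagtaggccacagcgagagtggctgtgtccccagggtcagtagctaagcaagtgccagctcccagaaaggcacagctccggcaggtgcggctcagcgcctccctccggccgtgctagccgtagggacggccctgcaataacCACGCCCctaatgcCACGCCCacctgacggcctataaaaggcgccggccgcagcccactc
In Nanog the octamer core began 75 bases and the Sox core 67 bases before the start, side by side, with a Klf box at 10 bases. Zfp42 held an octamer core at 185 and a Klf box at 74 bases. Tfcp2l1 held 2 Klf boxes, at 60 and 46 bases, and none of the other motifs. No motif was matched in the windows of Klf2, Klf4 and the downstream start of Esrrb, while the upstream start of Esrrb and Nr0b1 each held 1 Klf box. Over the 9 starts given for the 7 genes, 3 held the octamer core, 2 the Sox core, 6 the Klf box and 0 the Esrrb core, with the 2 overlapping windows of Nanog counted separately. None of the matches overlapped another in these 3 windows. Of 32851 promoter windows of the same length, 4.1% held the octamer core, 10.7% the Sox core, 26.1% the Klf box and 4.1% the Esrrb core. The matches are descriptions of letters, and no binding was measured. In the same arrays limma gave Pou5f1 a change of -0.06 (SE 0.07, adjusted p = 0.852) and Sox2 1 of -0.08 (SE 0.07, adjusted p = 0.797). For both genes all knockout arrays lay below all parental arrays, as for 10.2% of genes above background.

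The genes varied in different ways from array to array. Among the knockout arrays, replicate 2 had the lowest value of Nanog (10.25) and of Tfcp2l1 (9.18) and the highest of Klf2 (10.11), Zfp42 (11.57), Klf5 (10.54), Tbx3 (7.78) and Nr0b1 (9.62). Among the parental arrays, replicate 2 was highest for Prdm14, Klf5, Esrrb, Tbx3 and Nr0b1, and lowest for Klf2, Klf4 and Zfp42. Over the 6 arrays, Pearson's r with Nanog was 0.934 for Tfcp2l1, 0.843 for Prdm14, 0.830 for Esrrb, 0.634 for Klf2, 0.564 for Zfp42, 0.561 for Tbx3, 0.202 for Klf5, 0.043 for Nr0b1 and -0.465 for Klf4. The closest pair of members was Prdm14 and Esrrb, at 0.998. These values describe 6 arrays that share their normalization and include the difference between the groups, and they carry no test.

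Outside the 10 genes, the 5 genes most like Nanog over the 6 arrays, among 13337 above background, were Scamp3 (r = 0.997), Fgd6 (0.996), Nhlrc2 (0.993), Efr3a and Prep (both 0.990). Their changes ran from -0.35 for Efr3a and Prep to -0.18 for Nhlrc2. None of these 5 passed limma's test, with adjusted p from 0.170 to 0.486. This ranking over 6 arrays is a description and says nothing of shared function.

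Other genes around the network were taken from lists. Of the 19 measured general pluripotency genes 0 passed limma's test, 7 were lower and 0 higher at an unadjusted p under 0.05 (5.19% of all probe sets were lower by that measure), and the median change was -0.08. Without overlap, 10 of the 19 were lower and 1 higher, against 10.2% lower among genes above background. The array mean of the list was 9.82 to 9.84 in parental and 9.65 to 9.75 in knockout samples. Dppa5a, an RNA-binding KH-domain protein of ES cells, was the one that was higher, at 13.43 ± 0.03 in parental and 13.51 ± 0.03 in knockout arrays (SD, n = 3; adjusted p = 0.781, limma). Fbxo15, Dppa3 and Gdf3, named after their values were seen, changed by -0.57, -0.53 and -0.37 (adjusted p = 0.119, 0.143 and 0.148). Their groups did not overlap. Fbxo15 is an F-box gene activated by Oct4 and Sox2, Dppa3 (Stella) protects maternal methylation marks in the zygote, and Gdf3 is a TGF-beta family ligand.

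Input signals to the network gave no call. At an unadjusted p under 0.05, 5.19% of all probe sets were lower and 9.49% passed in either direction. In the LIF list 0 of 8 genes passed limma's test and 1 was lower at an unadjusted p under 0.05 (median 0.04). Pim3, a kinase gene induced by LIF, changed by 0.08 and Socs3, the feedback inhibitor of Stat3, by -0.04. The gene of this list that was lower was Pim1, at -0.42 without overlap (adjusted p = 0.187, limma). In the FGF and ERK list 0 of 9 passed, with 1 lower and 2 higher unadjusted (median 0.01). Etv5, an ETS factor downstream of FGF, changed by -0.13 and the feedback inhibitor gene Spry2 by 0.23 (adjusted p = 0.709 and 0.490).

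Among repressors and exit factors 0 of 7 passed and 1 was lower unadjusted (median 0.00), where 5.19% of all probe sets were lower unadjusted. Rbpj, the DNA-binding protein of Notch signalling, changed by 0.13 and Zfp281, a zinc finger factor of the transition to the primed state, by 0.04. Of 13 formative and primed epiblast genes 0 passed, 1 was lower and 0 higher unadjusted (against the same 5.19% lower), and the median was -0.05. Dnmt3b, a de novo DNA methyltransferase, changed by 0.17 and Nodal, a TGF-beta family ligand, by -0.09. The changes ran from -0.36, for Otx2 and Zic2, to 0.35, for the primed epiblast marker Fgf5, and the groups overlapped for all 13 genes. These 3 were named after their values were seen.

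For genes known to be repressed by Prdm14 in mouse ES cells (Dnmt3a, Dnmt3b, Dnmt3l, Uhrf1, Fgfr1 and Fgfr2), 1 of 6 rose, 0 fell and 5 did not pass (median change 0.03), where 31 of all 45037 probe sets rose. The gene that rose was Dnmt3l, the cofactor of de novo methylation, at 10.50, 10.42 and 10.40 in parental and 11.09, 11.24 and 10.94 in knockout arrays. Every knockout array was above every parental array, with a change of 0.65 (SE 0.09, adjusted p = 0.0318, limma). Its only probe set has the s_at ending. That call ended with the replicate number as a block (adjusted p = 0.122), with the feeder covariate (0.553), without moderation (0.274), and without parental replicate 1 (0.115), 2 (0.123) or 3 (0.130) or knockout replicate 1 (0.147) or 2 (0.0782). Dnmt3a changed by 0.06, Dnmt3b by 0.17, Uhrf1 by -0.04, Fgfr1 by 0.01 and Fgfr2 by -0.08, each with overlap between the groups.

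Of the 12 other measured Krüppel-like factor genes 0 passed limma's test, 1 was lower and 2 higher at an unadjusted p under 0.05, and the median was -0.05. Over all probe sets, 5.19% were lower and 9.49% passed in either direction by that unadjusted measure. Klf9 changed by -0.17 (adjusted p = 0.554) and Klf6 by 0.14 (adjusted p = 0.821), both widely expressed members of the family.

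**Figure D3:**
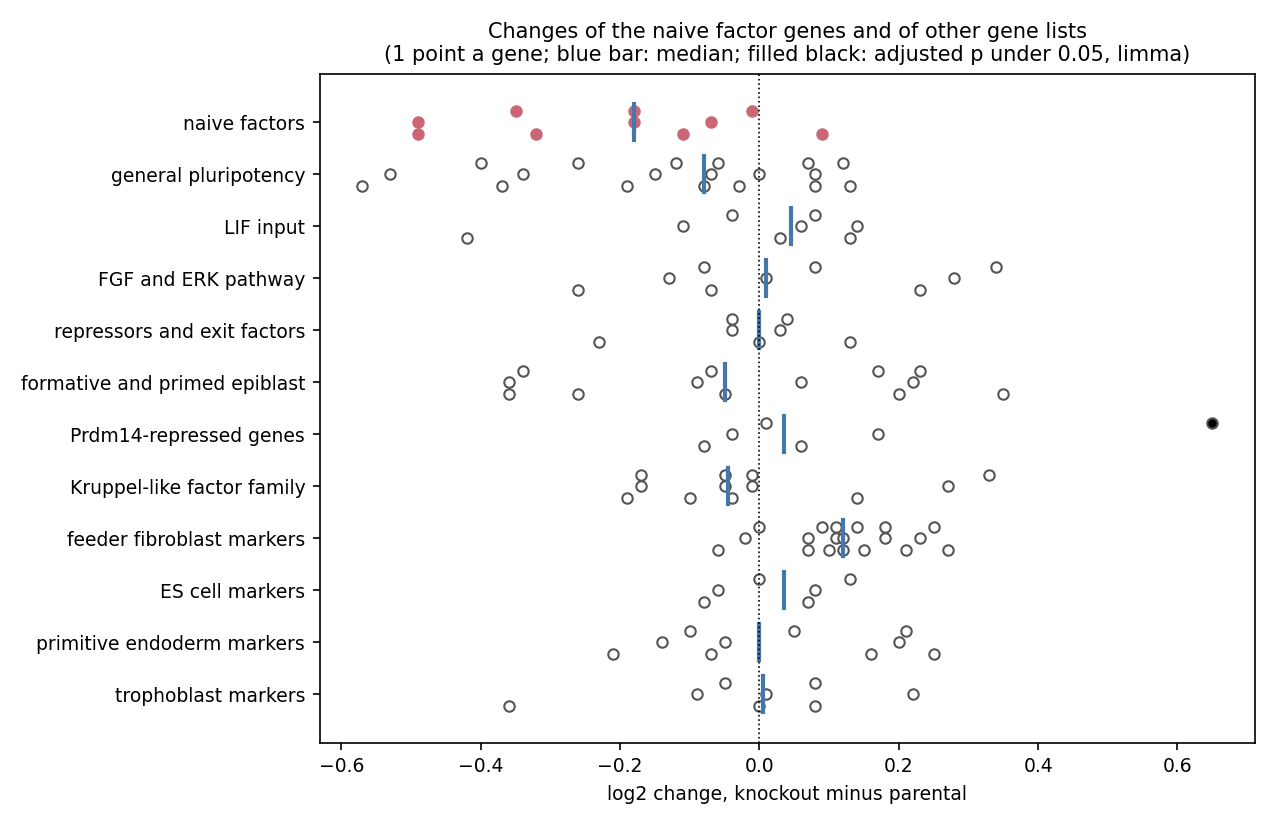
Log2 change (knockout minus parental) of each naive factor gene (red, lead probe set) and of each gene of the other lists, with the median of each list as a blue bar. The naive factors have a median of -0.18 and range from -0.49 to 0.09, Dnmt3l at 0.65 is the only filled black point, and the feeder markers have a median of 0.12.

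The ES cell markers are part of the general pluripotency list, whose array mean was lower in knockout samples, and are no independent measure of the ES cell share. Scaling each array to its ES cell marker mean, an alternative chosen after seeing the data, left the same 5 genes without overlap. Nanog then differed by -0.51, Prdm14 by -0.51, Klf2 by -0.38, Tfcp2l1 by -0.35 and Esrrb by -0.21, and 0 of 21 probe sets passed limma's test. With the feeder marker mean as a covariate, Nanog was at -0.56, Prdm14 at -0.50, Tfcp2l1 at -0.32, Esrrb at -0.19 and Klf2 at -0.11, with adjusted p from 0.733 to 0.953. Zfp42 moved from -0.11 to -0.04 (adjusted p = 0.988). The feeder mean did not overlap between the groups, and the errors of this fit were wider (SE 0.16 for Nanog, against 0.10 without it).

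**Figure D4:**
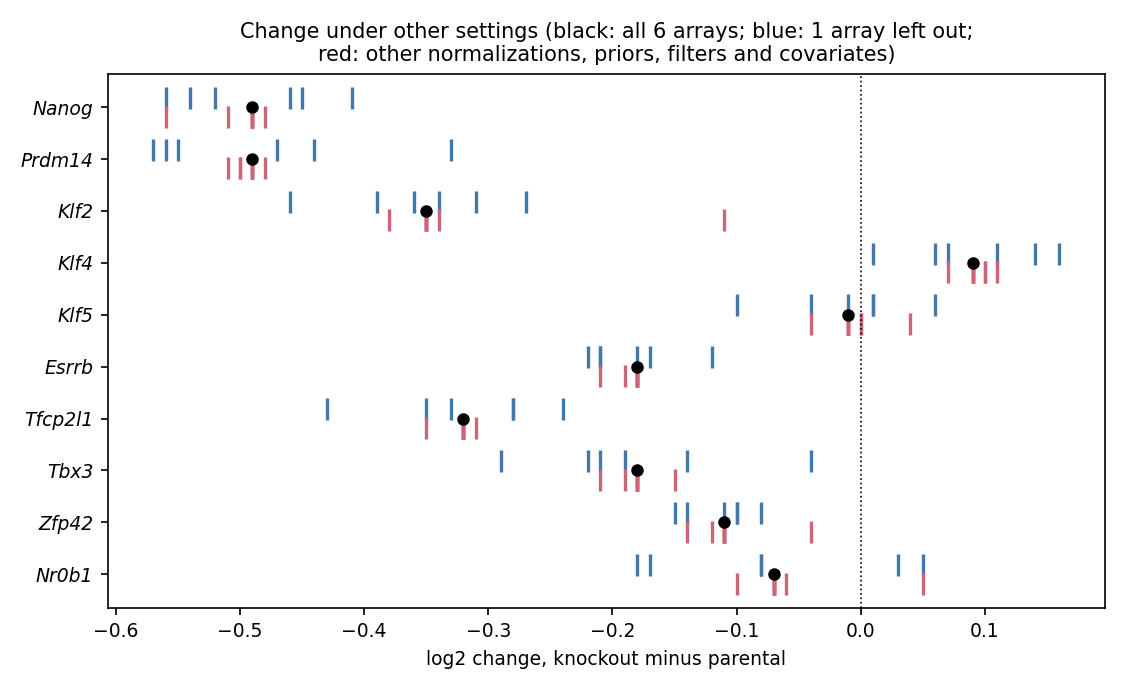
Log2 change of the lead probe set of each naive factor gene with all 6 arrays (black), without 1 array in turn (blue) and under other normalizations, priors, filters and covariates (red). Nanog stays between -0.56 and -0.41, Klf2 moves to -0.11 with the feeder covariate, and only Klf5 and Nr0b1 cross 0 among the settings drawn.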

How the data were processed

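The labels give total RNA as the extracted molecule, biotin as the label and Affymetrix arrays as the platform. The deposited table holds a log2 value for each probe set on each array, made by the authors with RMA per the submitters' processing notes. Its software and chip definition were not given in the sources used here. The log2 scale was inferred from the range of the deposited values, 2.12 to 13.98. Because RMA forces arrays onto a common distribution, a global shift of transcripts would be hidden. Array medians were 4.21 to 4.25, array pairs correlated at 0.994 to 0.997, and no arrays were identical.

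Of 45101 probe sets 64 controls were left out. The platform annotation names 1 gene for 34945, several for 932 and none for 9160 of the rest. Background, 3.79, was the 95th percentile over the array means of 78 olfactory and vomeronasal receptor probe sets. The two-sided moderated test of limma 3.58.1 (R 4.3.3) was run without covariates, p-values were adjusted by Benjamini-Hochberg over 45037 probe sets at a threshold of 0.05, and the procedure was tested on simulated data. Exact permutation tests used SciPy 1.17.1. The number of arrays limits the precision.

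The 10 genes and all lists were chosen with earlier results of these data known. Named were all members, Dppa4, Pou5f1 and Sox2 and, from each list, up to 4 genes that passed or else the 2 with the highest mean. Symbols are those of the platform annotation; chromosomes and promoters are RefSeq's (GRCm38.p6).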

Additional observations from a re-analysis of the deposited data

How the results depend on the processing

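Of 15 alternatives to the whole-table fit, 14 gave 0 called probe sets of the naive factors, and the intensity trend with a robust prior gave 1, of Nanog. Lead probe sets kept their direction, except for Klf5 and Nr0b1. Klf5 turned to 0.04 with the feeder covariate, to 0.00 with quantile normalization, and ranged from -0.10 to 0.06 without 1 array (0.01 without parental replicate 1 or knockout replicate 1). Nr0b1 turned to 0.05 with the feeder covariate and ranged from -0.18 to 0.05 without 1 array (0.03 without knockout replicate 1). Other probe sets turned the sign for Klf4 (-0.06), Klf5 (0.02) and Tfcp2l1 (0.18, below background). The cause was not tested. Of all probe sets 181 passed, against 88 with the replicate block, 312 with the trend and robust prior, 1 without moderation, 70 to 112 when an array was left out, and 24 when the feeder mean was a covariate. Arrays with equal replicate numbers did not deviate together (correlations 0.112, -0.364 and -0.287), so the labels' numbers give no pairing. Crossing the numbers gave higher values in places, 0.379 (parental 3, knockout 2) and 0.371 (parental 2, knockout 3). The remaining combinations gave 0.036, 0.011, -0.121 and -0.139. Whether the crossed arrays shared a batch was not tested, and no fit used such pairs. Dppa4 missed the threshold without moderation (-1.63, adjusted p = 0.0956) and passed under the other 14. With the block, Nanog was at -0.49 (adjusted p = 0.376) and 0 naive factor probe sets passed. The feeder marker difference was 0.08 to 0.15 without 1 array.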

Other observations

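A few genes beside the network, named after their values were seen, separated the groups without passing the test of limma over all probe sets. Tfap2c, an AP-2 transcription factor of trophoblast and germ cells, went from 7.75 ± 0.05 to 7.39 ± 0.06 (SD, n = 3), a change of -0.36 (SE 0.07, adjusted p = 0.122). Mycn, a Myc family gene, changed by -0.40 (SE 0.11, adjusted p = 0.275), and Pim1, a kinase gene induced by Stat3, by -0.42 (SE 0.10, adjusted p = 0.187). Etv4, an ETS factor downstream of FGF and ERK, moved the other way, from 7.43 ± 0.01 to 7.71 ± 0.09 (SD, n = 3; change 0.28, SE 0.08, adjusted p = 0.267). All knockout arrays lay beyond all parental arrays for these 4 genes, as they did for 18.7% of genes above background in either direction.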
